A study of Rattus norvegicus with 53 samples.

Results

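The genes described here are those of the phosphatidylinositol 3-kinase (PI3-kinase) step of insulin signalling: the catalytic subunits Pik3ca and Pik3cb, the regulatory subunit Pik3r1, the class III enzyme Pik3c3, the lipid phosphatases Inpp4a and Inppl1, and the kinases Pdpk1, Akt1 and Akt2. They were taken by name, with earlier results of these data known. Of the 9 genes, 8 had a probe set carrying that symbol alone in the platform annotation, with 20 probe sets in all, out of 31099 on the array; Pik3cb had none and is not analysed here. Each gene is described at its brightest probe set by the mean over all arrays, with the other probe sets as a check.

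The cells were L6, an established rat skeletal muscle line, differentiated into myotubes and kept in serum-free medium for 8 h before time 0. The insulin cultures then received serum-free medium with 20 nM insulin, and the control cultures serum-free medium with 0 nM. RNA abundance was measured at time 0 and in 8 hourly pools per culture, each pool joining 3 samples harvested one after another within that hour, on 53 arrays in 18 groups. The whole experiment was run 3 times on different days with the same line, marked by the letters a, b and c; each group therefore held 3 arrays, except the insulin culture of hour 3, which lacked letter a because the submitters had left that array out. The fitted hour 3 difference thus sets 3 control arrays against 2 insulin arrays. All cultures came from 1 cell line, so the spread measured is that between repeats of a culture.

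Insulin binding to its receptor brings PI3-kinase to the membrane, where the catalytic subunit, held by a regulatory subunit, phosphorylates a membrane inositol lipid. The lipid product recruits Pdpk1 and Akt, and Pdpk1 phosphorylates Akt, the kinase that carries the signal to glucose transport, glycogen synthesis and protein synthesis. Lipid phosphatases such as Inppl1 and Inpp4a remove phosphates from these lipids and from their breakdown products. Pik3c3, also known as Vps34, makes a different lipid on endosomes and on forming autophagosomes. All of this control acts largely on proteins and lipids, while the arrays measured RNA.

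Markers of differentiated myotubes were well detected, with all 14 that matched a probe set above a mean log2 level of 5 and a median of 11.85, and none of the 14 was called between the cultures over hours 1 to 8. All 6 fibroblast markers (median 12.10) and all 6 proliferation markers (median 8.89) reached 5 too, with none called between the cultures. Of the 4 matched markers of undifferentiated myoblasts, with a median of 8.49, 3 reached 5 and none was called. Of 5 adipocyte markers 2 reached 5 and none was called. None of the 4 matched endothelial markers reached 5. Of 6 macrophage markers 4 reached 5 and 1 was called, Cd68, higher with insulin by 0.14 (SE 0.04, adjusted p = 0.0379) at a mean level of 5.57, while Adgre1 and Ptprc stayed below 5; the part of this in the results below was not tested. Letter b stood apart in 1 respect. Over all tested probe sets its insulin minus control difference at time 0, before any insulin, correlated with its mean difference over hours 1 to 5 (Pearson r across probe sets 0.77, whereas letters a and c had 0.02 and 0.15), so the members and pathway genes called over hours 1 to 8 and named below are also given without its arrays of hours 0 to 5.

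Over hours 1 to 8, insulin against control, 1 of the 8 members was higher in the insulin cultures (Pdpk1), 2 were lower (Pik3ca and Pik3c3) and 5 did not pass the test (limma, Benjamini-Hochberg adjusted over 22143 tested probe sets). Of all tested probe sets 5.47% were called higher and 6.55% lower. The median difference of the 8 members was -0.13 on the log2 scale, beside 0.00 for all tested probe sets, and 6 of the 8 lay below 0. Pik3ca, Pik3c3, Inpp4a and Inppl1 belong to a list that the study selected on these samples, so their direction is not independent evidence. Relative to each culture's own time 0, no member passed (1 had an unadjusted p under 0.05, and 2 with the letter as a block, where none passed), and 0% of all tested probe sets did. The median standard error relative to time 0 was 0.15, against 0.05 for hours 1 to 8 alone, so that comparison is less sensitive. With the letter as a block, 1 member was higher and 4 were lower, Akt2 and Inpp4a being added, while 11.6% and 15% of all tested probe sets were then called higher and lower. With 1 mean per letter, none of the 8 passed (3 had an unadjusted p under 0.05), and 0.23% and 0.465% of all tested probe sets were called.

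**Figure D1:**
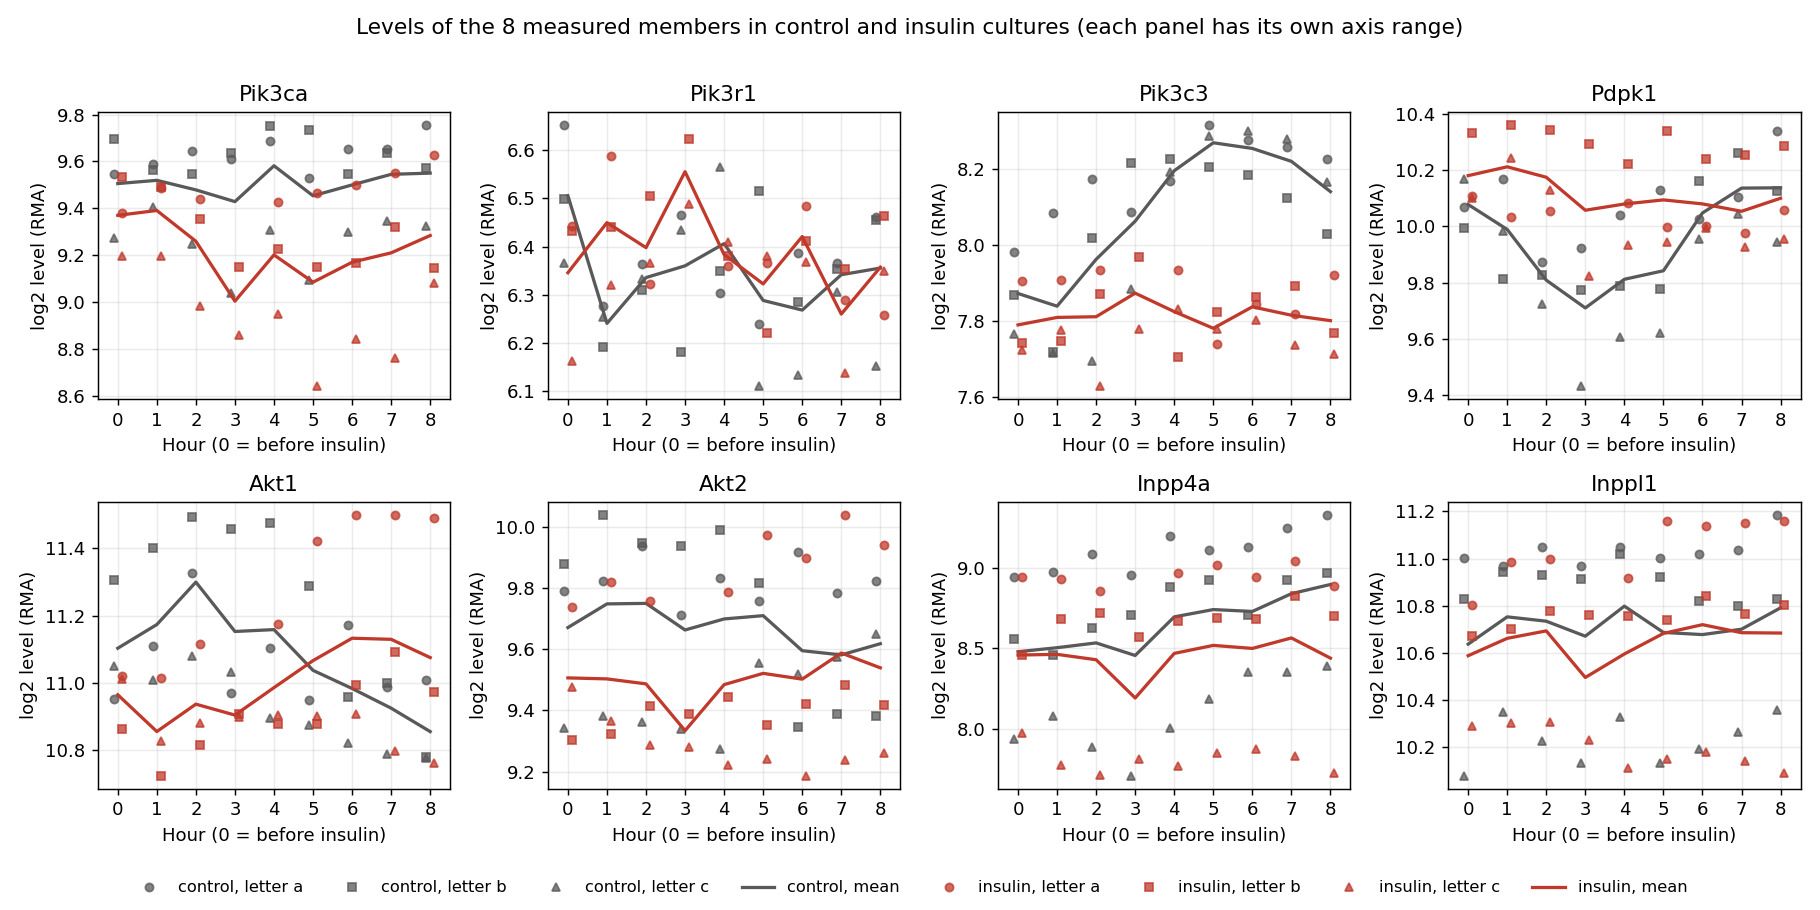
Log2 level (RMA, vertical axis) of the brightest probe set of each of the 8 measured members against the hour (horizontal axis). Grey marks are control arrays and red marks insulin arrays, the shape gives the letter, and lines join the means of each culture; each panel has its own range. In Pik3c3 the control mean rose from 7.87 at time 0 to 8.27 at hour 5 while the insulin mean stayed between 7.78 and 7.87. In Inpp4a and Inppl1 the letters lie further apart than the cultures.

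By time window, members were called over hours 5 to 8 and none over hours 1 and 2. The early window averages fewer hours and has larger standard errors (for Pik3ca 0.15 against 0.10), so the windows are not equally sensitive. Pdpk1 had its larger difference early, 0.29 against 0.04. Over hours 5 to 8, no member was called higher and 2 were called lower, Pik3ca and Pik3c3, beside 3.98% and 5.27% of all tested probe sets. Under the block on letters, 3 were lower, Inpp4a being added (9.26% higher and 12.4% lower of all), and with 1 mean per letter 1 was lower, Pik3c3 (1.24% and 1.69%). Over hours 1 and 2, no member passed, and 0% of all tested probe sets did (0 members also with the letter as a block); Pdpk1 and Akt1 had an unadjusted p under 0.05. By an F test over the 8 hourly differences 1 member passed, Pik3c3, beside 2.4% of all tested probe sets, and 4 passed with the letter as a block, Pik3ca, Pik3c3, Pdpk1 and Inpp4a, beside 11.4%. At single hours, Pik3c3 at hour 5 was the only call among the members, where 0.23% of all tested probe sets were called lower. Under the block on letters Pik3c3 was called lower at each of hours 4 to 8, Pik3ca at hour 5 and Inpp4a at hour 8, beside 0.732%, 1.26%, 1.53%, 1.47% and 3.25% of all tested probe sets called lower at those 5 hours. From hours 1 and 2 to hours 5 to 8 the difference of no member changed past the threshold (2 had an unadjusted p under 0.05, Pik3c3 and Akt1), beside 0.93% of all tested probe sets changing upward and 0.908% downward; when letters were blocked, Akt1 passed upward and Pik3c3 downward, beside 6.18% and 5.69%. With 1 mean per letter neither passed, beside 0.0181% and 0.0361%. At time 0 no member was called between the cultures (0% of all tested; 0 members at an unadjusted p under 0.05, and 0 with the letter as a block).

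Pik3ca encodes the p110 alpha catalytic subunit, the PI3-kinase isoform best known for insulin signalling. At time 0 its log2 level was 9.55, 9.70 and 9.27 in the control arrays of letters a, b and c and 9.38, 9.53 and 9.20 in those of the insulin cultures. At hour 5 it was 9.53, 9.74 and 9.09 in control and 9.46, 9.15 and 8.64 with insulin. At hour 8 it was 9.75, 9.57 and 9.32 against 9.63, 9.14 and 9.08. The insulin array was the lower of each letter's pair at every hour measured, in 7 of 7, 8 of 8 and 8 of 8 pairs, yet the groups overlapped at every hour. At the times given, letter c lay below the others in both cultures. At hour 8 letters a and b overlapped too, with 9.63 in the insulin array of a and 9.57 in the control array of b.

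The mean difference of Pik3ca over hours 1 to 8 was -0.31 (SE 0.08, limma adjusted p = 0.0051, 1.24-fold lower), and over hours 5 to 8 it was -0.33 (SE 0.10, adjusted p = 0.0412), or -0.30 (adjusted p = 0.160) without letter b at hours 0 to 5. By letter, the means of the 8 hours were -0.15, -0.37 and -0.34. The cultures differed in the same direction before insulin, by -0.17, -0.16 and -0.07 at time 0 in letters a, b and c, and relative to time 0 the difference was -0.17 (SE 0.22, adjusted p = 1.00). Without letter b at hours 0 to 5 the difference of hours 1 to 8 was -0.29 (adjusted p = 0.0858), and without letter b altogether -0.28 (adjusted p = 0.238). Over the 15 alternatives the difference of Pik3ca ranged from -0.36 to -0.17 and its adjusted p from 5.1e-08 to 1.00, and it passed in 11. Letter a held the smallest difference of the 3 letters.

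The 5 other probe sets of Pik3ca gave a check. Over hours 5 to 8 the differences at all 6 probe sets lay between -0.49 and -0.21, and 5 of the 6 passed the test; the one that did not is the dimmest, with a mean level of 5.93 (adjusted p = 0.314). For hours 1 to 8 the 6 differences lay between -0.31 and -0.06, and 3 passed. At the probe set with a mean level of 9.20 the difference changed from hours 1 and 2 to hours 5 to 8 by -0.62 (SE 0.14, adjusted p = 0.0152); at the brightest one this change was -0.15 (adjusted p = 0.794). In letter b, 4 of the 5 other probe sets were higher at time 0 in the culture that later received insulin, against a lower brightest one.

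**Figure D2:**
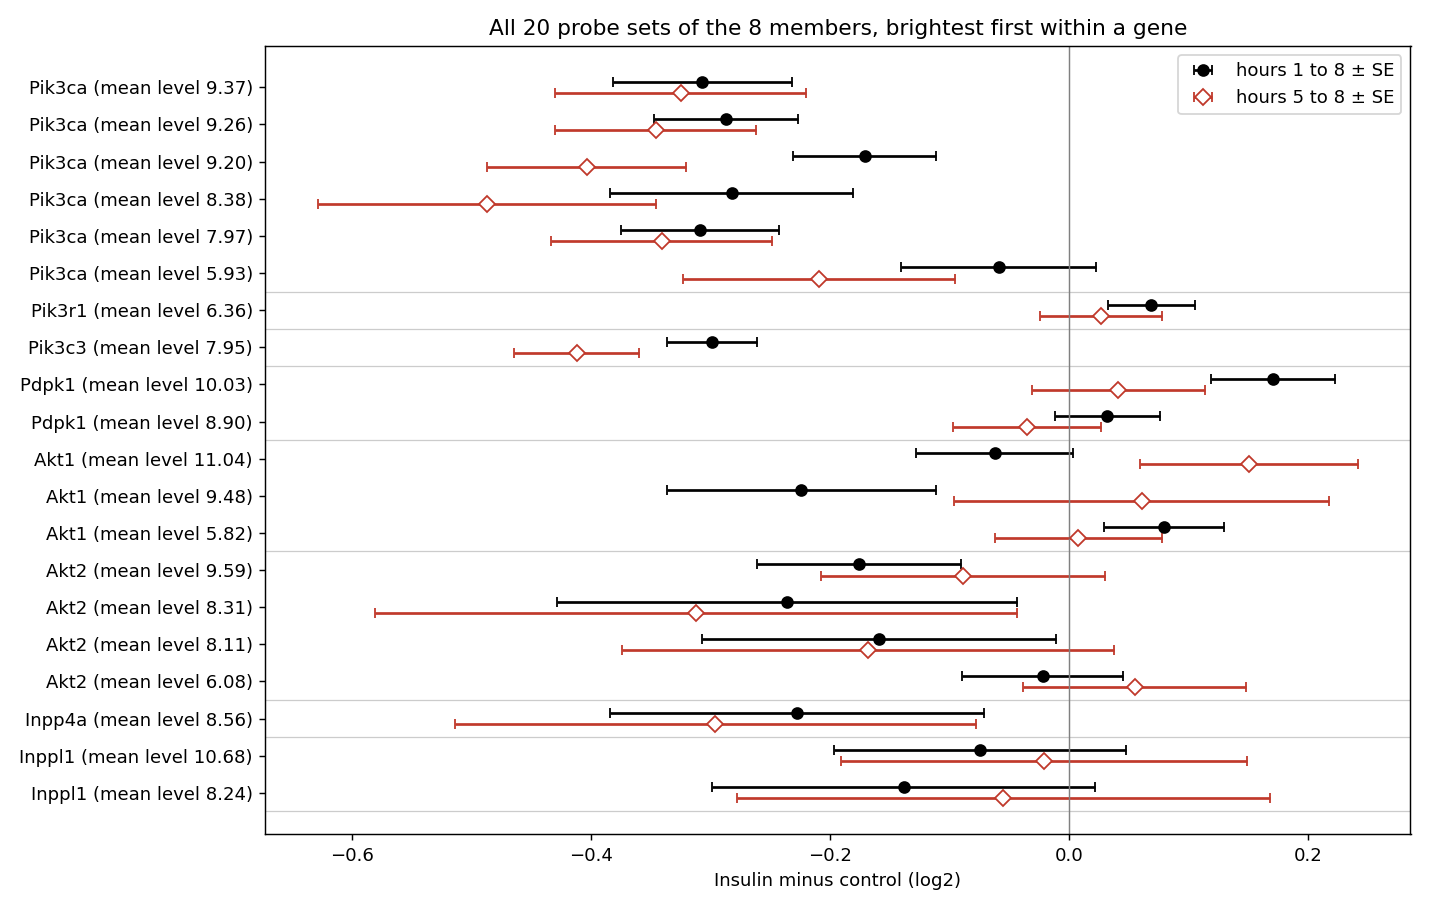
Insulin minus control difference on the log2 scale (horizontal axis) with its standard error from the limma fit, for all 20 probe sets of the 8 members, named by gene and mean level. Filled circles give hours 1 to 8 and open diamonds hours 5 to 8. All 6 Pik3ca probe sets lie below 0 over hours 5 to 8, while the 3 Akt1 probe sets lie on both sides of 0 over hours 1 to 8.

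Pik3r1 encodes p85 alpha, the regulatory subunit that holds and stabilises the catalytic subunits and docks on insulin receptor substrates. Its single probe set had a mean level of 6.36. At hour 1 its level was 6.28, 6.19 and 6.25 in control and 6.59, 6.44 and 6.32 with insulin, and the groups did not overlap (2.33% of all tested probe sets had every insulin array above every control array at hour 1). That difference, 0.21 (SE 0.10), did not pass the test (adjusted p = 1.00). At time 0 the control arrays held 6.65, 6.50 and 6.37 and the insulin arrays 6.44, 6.43 and 6.16. Its difference over hours 1 to 8 was 0.07 (SE 0.04, adjusted p = 0.238), and of 15 alternatives it passed in 1, array weights, at 0.09 (adjusted p = 0.0348, against up to 1.00 elsewhere).

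Pik3c3 had the lowest limma adjusted p of the 8 members over hours 1 to 8. Its level at time 0 was 7.98, 7.87 and 7.77 in the control arrays of letters a, b and c and 7.90, 7.74 and 7.72 in the insulin arrays. At hour 5 it was 8.31, 8.21 and 8.29 in control and 7.74, 7.82 and 7.78 with insulin. At hour 8 it was 8.23, 8.03 and 8.17 against 7.92, 7.77 and 7.71. Every insulin array lay below every control array at hours 4, 5, 6, 7 and 8, which held for 4.24%, 3.88%, 4.89%, 5.06% and 6.07% of all tested probe sets at those hours, and the groups overlapped at hours 0 to 3.

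For Pik3c3 the mean difference over hours 1 to 8 was -0.30 (SE 0.04, adjusted p = 3.81e-07), and it was -0.34, -0.26 and -0.31 by letter; without letter b at hours 0 to 5 it was again -0.30 (adjusted p = 0.000202). In hours 5 to 8 it reached -0.41 (SE 0.05, adjusted p = 3.82e-07, 1.33-fold lower), and with 1 mean per letter its adjusted p was 0.0359. Over hours 1 and 2 it was -0.09 (SE 0.07, adjusted p = 0.757). The change between the early and the late hours, -0.32 (SE 0.09), missed the threshold (adjusted p = 0.0531) and passed it once letters were blocked (adjusted p = 0.00514), but not with 1 mean per letter (adjusted p = 0.223) or without letter b at hours 0 to 5 (adjusted p = 0.353). Relative to time 0 the difference over hours 5 to 8 was -0.33 (adjusted p = 0.470). The difference of Pik3c3 over hours 1 to 8 ranged from -0.32 to -0.22 over the 15 alternatives and passed in 13; it did not with 1 mean per letter (adjusted p = 0.0854) or relative to time 0 (adjusted p = 1.00).

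Within each culture, the control level of Pik3c3 over hours 5 to 8 lay 0.35 above that culture's own time 0 (SE 0.08, adjusted p = 0.00618), and 3.61% of all tested probe sets rose in that comparison. The insulin level over the same hours differed from its time 0 by 0.02 (SE 0.08, adjusted p = 0.984). The rise was thus called in the control cultures, and the difference between the rises is the value relative to time 0 given above, which did not pass. Among the 8 members no other was called in either culture; with the letter as a block, Inpp4a was called higher in control as well (0.32, adjusted p = 0.00185), beside 11.3% of all tested probe sets. Pik3c3 had 1 probe set, so no second one could check it.

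**Figure D3:**
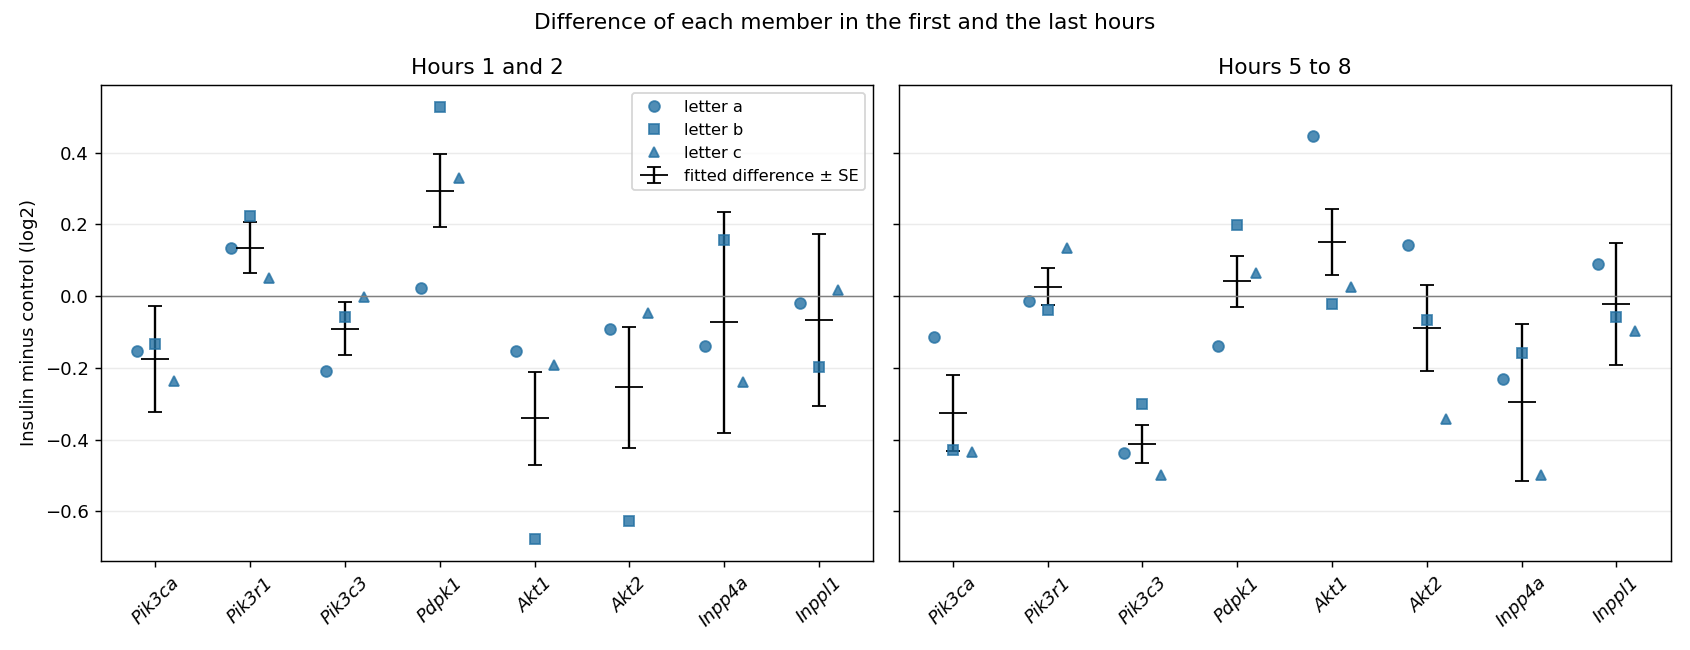
Insulin minus control difference on the log2 scale (vertical axis) for each of the 8 members over hours 1 and 2 (left) and over hours 5 to 8 (right). Blue marks are the means of letters a, b and c, and black bars the fitted difference with its standard error. Pik3c3 lies at -0.09 on the left and at -0.41 on the right; Akt1 lies at -0.34 on the left, with letter b at -0.68, and at 0.15 on the right, with letter a at 0.45.

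The start regions of the 3 members that passed over hours 1 to 8 are printed for reference. Each runs from 250 bases before to 50 bases after the gene's annotated start on its own strand, from RefSeq (rat assembly GRCr8). Capitals mark matches, on either strand, to 5 short motifs: the FOXO site GTAAACA, the E-box CACGTG, the GC box GGGCGG, the CCAAT box CCAAT and the TATA box TATAAA, none of which contains another. These letters occur in 3.78%, 6.42%, 33.1%, 37.5% and 14.2% of all 33469 such windows. The window of Pik3ca is chr2:117147049-117147348 on the plus strand, that of Pik3c3 is chr18:22119607-22119906 on the plus strand, and that of Pdpk1 is chr10:13679126-13679425 on the minus strand.
Pik3ca: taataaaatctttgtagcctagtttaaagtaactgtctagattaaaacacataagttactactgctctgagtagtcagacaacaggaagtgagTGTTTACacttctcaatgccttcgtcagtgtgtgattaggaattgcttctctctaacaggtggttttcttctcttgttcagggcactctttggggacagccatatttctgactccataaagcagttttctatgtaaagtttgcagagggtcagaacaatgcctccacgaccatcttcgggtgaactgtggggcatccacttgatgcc
Pik3c3: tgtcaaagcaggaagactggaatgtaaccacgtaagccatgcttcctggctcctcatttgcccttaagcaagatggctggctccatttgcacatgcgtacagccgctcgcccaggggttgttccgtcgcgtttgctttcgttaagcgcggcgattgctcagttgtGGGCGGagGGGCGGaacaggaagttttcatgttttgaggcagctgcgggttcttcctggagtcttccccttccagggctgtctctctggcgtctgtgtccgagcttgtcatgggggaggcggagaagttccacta
Pdpk1: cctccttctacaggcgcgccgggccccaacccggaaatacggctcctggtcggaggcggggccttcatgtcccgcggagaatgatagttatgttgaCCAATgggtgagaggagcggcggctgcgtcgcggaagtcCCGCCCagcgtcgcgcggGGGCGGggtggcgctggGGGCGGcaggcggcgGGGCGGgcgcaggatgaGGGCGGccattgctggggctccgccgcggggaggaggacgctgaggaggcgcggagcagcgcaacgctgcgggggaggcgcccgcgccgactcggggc

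The Pik3ca window held 1 FOXO match, which begins at position -157 counted from the start, and no other motif; its GC content was 42%. The Pik3c3 window held 2 GC boxes at a GC content of 56.3%, and the Pdpk1 window 5 GC boxes and 1 CCAAT box at 74.7%. No window of the other 5 members held a FOXO match or an E-box. These are matches of letters and not measured sites. The Pik3ca bases after the annotated start open with ATG, so that start may be the coding start and not where transcription begins. Whether its FOXO match lies in a promoter was not tested.

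Inpp4a encodes a phosphatase that removes the phosphate at position 4 of PI(3,4)P2, a lipid of the PI3-kinase pathway. At hour 8 its level was 9.33, 8.97 and 8.39 in the control arrays of letters a, b and c and 8.89, 8.70 and 7.73 in the insulin arrays. At time 0 it was 8.94, 8.56 and 7.94 in control against 8.94, 8.46 and 7.97. The insulin array was the lower in each letter at hour 8, but the groups overlapped at every hour, since the letters differed by more than the cultures.

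Over hours 1 to 8 the difference of Inpp4a was -0.23 (SE 0.16, adjusted p = 0.383), and over hours 5 to 8 it was -0.30 (SE 0.22, adjusted p = 0.512). With the letter as a block it was -0.20 (adjusted p = 2.54e-05) and -0.30 (adjusted p = 8.46e-06). The letters' own means over hours 5 to 8 were -0.23, -0.16 and -0.50. With 1 mean per letter the adjusted p over hours 5 to 8 was 0.149. Over 15 alternatives the difference of hours 1 to 8 ranged from -0.32 to -0.15 (adjusted p up to 1.00), and Inpp4a passed in the 2 blocked fits only.

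Inppl1 encodes SHIP2, which removes a phosphate from the lipid product of PI3-kinase. At hour 8 its level was 11.19, 10.83 and 10.36 in control and 11.16, 10.80 and 10.09 with insulin. The mean difference of hours 1 to 8 was -0.07 (SE 0.12, adjusted p = 0.750), and its dimmer probe set gave -0.14 (SE 0.16, adjusted p = 0.634). The letters lay at 0.03, -0.13 and -0.06, on both sides of 0. Neither probe set passed when letters were blocked (for the brighter one, adjusted p = 0.166).

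Between the letters, the levels of both phosphatases moved with the myotube markers. Inppl1 had a mean of 11.03 over the 17 arrays of letter a, 10.82 over the 18 of letter b and 10.21 over the 18 of letter c, with no overlap between letter c and the others. Inpp4a had means of 9.03, 8.71 and 7.96. The mean over the 14 matched myotube markers was 11.09, 10.86 and 10.01 in the same order, while the mean over 6 proliferation markers was 9.27, 8.63 and 9.45. The letter accounted for 93.5% of the variation of Inppl1 over the arrays and for 87.5% of that of Inpp4a, beside a median of 26.3% for all tested probe sets, 54.1% for Akt2, 53.1% for Pik3ca, and from 8.21% (Pik3c3) to 24.3% (Akt1) for the other 4 members. Every other member was lowest in letter c as well, Akt2 with means of 9.84, 9.57 and 9.36 and Pik3ca with 9.56, 9.46 and 9.10. Akt1 had 11.17, 11.07 and 10.90, Pdpk1 10.06, 10.12 and 9.92, Pik3c3 8.03, 7.94 and 7.89, and Pik3r1 6.39, 6.39 and 6.31. The marker lists of fibroblasts (10.99, 10.81 and 10.76) and adipocytes (5.79, 5.78 and 5.72) were lowest there too. Those of undifferentiated myoblasts, macrophages and endothelial cells were lowest in letter a. The part of the myotube markers in these levels was not tested, and fewer differentiated cells and less RNA per cell cannot be told apart in bulk RNA.

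**Figure D4:**
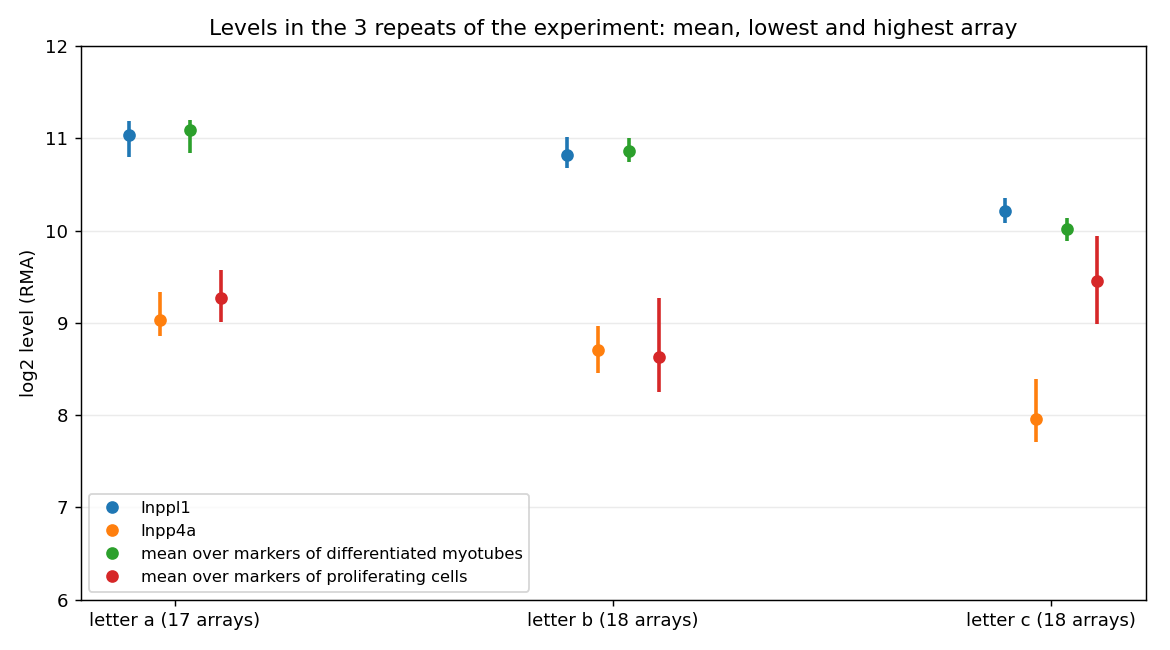
Log2 level (RMA, vertical axis) of Inppl1 and Inpp4a and the mean over the markers of differentiated myotubes and of proliferating cells, in letters a, b and c of the experiment (horizontal axis). Points are means over the arrays of a letter, both cultures and all times together, and bars reach from the lowest to the highest array. In letter c Inppl1, Inpp4a and the myotube markers were lowest and the proliferation markers highest.

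The Inpp4a and Inppl1 differences could be compared within arrays, over the 23 letter and hour pairs of hours 1 to 8. The mean difference of Inpp4a was -0.20 and that of Inppl1 -0.06 over these pairs, Inpp4a being the more lowered by -0.15 (SD 0.22) and in all but 5 of the 23 pairs (sign-flip permutation test, two-sided, adjusted over 2 comparisons, p = 0.0111). Per letter this gap was -0.23, 0.05 and -0.27, so letter b had none in that direction. It was lost without letter a (adjusted p = 0.143) and without letter c (adjusted p = 0.176), and held without letter b at hours 0 to 5 (-0.23, adjusted p = 4e-05). Pairs of 1 letter share their day, which this test does not allow for. The gap was taken at the brightest probe sets. Over hours 1 to 8 the dimmer Inppl1 probe set had letter means of 0.08, -0.30 and -0.08. Those of Inpp4a were -0.20, -0.08 and -0.33, so in letter b the dimmer Inppl1 probe set was the more lowered.

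Pdpk1 encodes the kinase that phosphorylates Akt at the membrane. At hour 2 its level was 9.87, 9.83 and 9.73 in control and 10.05, 10.34 and 10.13 with insulin, with no overlap (4.99% of all tested probe sets had every insulin array above every control array). At hour 8 it was 10.34, 10.13 and 9.95 against 10.06, 10.29 and 9.95, and the groups overlapped. At time 0 it was 10.07, 9.99 and 10.17 against 10.11, 10.33 and 10.10. The control mean of Pdpk1 went from 10.08 at time 0 to 9.71 at hour 3 and 10.14 at hour 8, whereas the insulin means stayed between 10.05 and 10.21.

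The difference of Pdpk1 over hours 1 to 8 was 0.17 (SE 0.05, adjusted p = 0.0250), from 0.29 over hours 1 and 2 to 0.04 over hours 5 to 8 (adjusted p = 0.361 and 0.833). It rested on letters b and c, at 0.35 and 0.20, while letter a was at -0.07. Letter b differed by 0.34 already at time 0. Without letter b at hours 0 to 5 the difference was 0.09 (adjusted p = 0.529), without letter b 0.07 (adjusted p = 0.692), without letter c 0.17 (adjusted p = 0.12) and without hour 3 0.15 (adjusted p = 0.0906). Over 15 alternatives the difference of Pdpk1 ranged from 0.07 to 0.28 (adjusted p from 0.000338 to 1.00), and it passed in 9. The dimmer probe set of Pdpk1 gave 0.03 (SE 0.04, adjusted p = 0.698).

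Akt1 encodes the most widely expressed Akt kinase. At hour 2 its level was 11.33, 11.49 and 11.08 in control and 11.12, 10.81 and 10.88 with insulin. At hour 8 it was 11.01, 10.78 and 10.78 in control and 11.49, 10.97 and 10.76 with insulin. Letter b was far lower with insulin at the early hours and letter a far higher at the late ones, and letter c differed less at both times. Apart from hour 3, where letter a is missing, the groups overlapped at every hour.

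For Akt1 the difference over hours 1 to 8 was -0.06 (SE 0.07, adjusted p = 0.595), and without letter a it was -0.19 (adjusted p = 0.0457), the only 1 of 15 alternatives in which it passed (adjusted p up to 1.00). It was -0.34 (SE 0.13, adjusted p = 0.398) over hours 1 and 2 and 0.15 (SE 0.09, adjusted p = 0.386) over hours 5 to 8; without letter b at hours 0 to 5 the first was -0.17 (adjusted p = 1.00) and the second 0.21 (adjusted p = 0.213). The change between them, 0.49 (SE 0.16), did not pass (adjusted p = 0.1) and passed once letters were blocked (adjusted p = 0.0103), but not with 1 mean per letter (adjusted p = 0.111); per letter it was 0.60, 0.65 and 0.22, and over 13 alternatives 0.38 to 0.63 (adjusted p up to 0.595). In letter b the insulin array differed from control by -0.44 at time 0, before insulin, and by -0.68 over hours 1 and 2. The middle probe set of Akt1 changed by 0.54 (adjusted p = 0.361) and the dimmest, with a mean level of 5.82, by -0.17 (adjusted p = 0.584).

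Akt2 encodes the isoform most closely tied to insulin-stimulated glucose uptake in muscle. At hour 1 its level was 9.82, 10.04 and 9.38 in control and 9.82, 9.32 and 9.37 with insulin. At hour 8 it was 9.82, 9.38 and 9.65 against 9.94, 9.42 and 9.26. The lower insulin arrays were those of letter b early, which differed by -0.58 at time 0 as well, and those of letter c late. For Akt2 the difference over hours 1 to 8 was -0.18 (SE 0.09, adjusted p = 0.189), and -0.16 (adjusted p = 0.0246) with the letter as a block. It passed in 4 of 15 alternatives, the 2 blocks, array weights and without letter a (-0.26, adjusted p = 0.0372), with adjusted p up to 1.00 elsewhere. Without letter b at hours 0 to 5, and with no block, it was -0.08 (adjusted p = 0.789). Its 3 other probe sets gave -0.24, -0.16 and -0.02, none past the test. In letter c the first 2 went from 0.93 and 0.65 over hours 1 and 2 to -1.13 and -0.74 over hours 5 to 8. They were at 0.80 and 0.45 in that letter at time 0, before insulin. In letter b they moved the other way between these windows, from -0.39 and -0.46 to 0.23 and 0.17.

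Akt1 and Akt2 were compared within arrays in the same way as the phosphatases. Over the 23 pairs the mean difference was -0.06 for Akt1 and -0.17 for Akt2, so that Akt1 lay above Akt2 by 0.10 (SD 0.19) and in 14 of 23 pairs (sign-flip permutation test, two-sided, adjusted p = 0.0158). As before, the test does not allow for pairs of 1 letter sharing a day. Per letter the gap was 0.17, 0.00 and 0.15. It was lost without letter a (0.07, adjusted p = 0.143) and without letter c (0.08, adjusted p = 0.135), and held without letter b at hours 0 to 5 (0.14, adjusted p = 0.0106). The gap holds for the brightest probe sets only. Over hours 1 to 8 the middle Akt1 probe set was at -0.22 and the dimmest at 0.08, neither past the limma test. The former lay below the brightest Akt2 probe set at -0.18, so the order depends on the probe set.

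By the pattern of the 18 group means, the gene most like each member among 11631 tested genes was Azi2 for Pik3ca (Pearson r 0.93), Kcnab1 for Pik3r1 (0.85), Tmem140 for Pik3c3 (0.98), Ube3a for Pdpk1 (0.95), Ipo13 for Akt1 (0.95), Gnas for Akt2 (0.97), Mypn for Inpp4a (0.97) and Stk36 for Inppl1 (0.86). The next in order were Baiap2l1 and Pnrc1 for Pik3ca, Cyp4a3 and Smarca5 for Pik3r1, Cir1 and Cln8 for Pik3c3, and Hcfc2 and Rnf14 for Pdpk1. They were Lrrc47 and Mapkapk2 for Akt1, Tmub1 and Bcam for Akt2, Spata6 and Sln for Inpp4a, and Shc2 and Maged1 for Inppl1. Mypn and Sln, both in the list of Inpp4a, encode proteins of striated muscle. The group means share arrays and days, so these are descriptions. Among the members themselves the highest was Pik3ca with Akt2 (0.78) and the lowest Pdpk1 with Akt1 (-0.70).

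Around the members, other genes of the pathway were read by lists drawn up by role. Of 10 tested PI3-kinase subunits and partners, none was higher and 2 were lower over hours 1 to 8, with a median of -0.11. For this list and those that follow, the shares of all tested probe sets were 5.47% higher and 6.55% lower, and the median over all tested genes was 0.00. These were Pik3ip1, an inhibitor of the catalytic subunit, at -0.79 (SE 0.08, adjusted p = 4.37e-09), and Atg14, which directs the Pik3c3 complex to autophagosome formation, at -0.55 (SE 0.06, adjusted p = 4.37e-09). Both were lower in every letter, from -0.84 to -0.69 for Pik3ip1 and from -0.67 to -0.46 for Atg14, and both passed with 1 mean per letter (adjusted p = 0.0102 and 0.0219) and without letter b at hours 0 to 5 (adjusted p = 3.38e-05 and 1.86e-06). The difference of Pik3ip1 grew from the early to the late hours by -0.78 (adjusted p = 0.0263).

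The other partners of Pik3c3 in its complexes, named here after their values were seen, did not pass over hours 1 to 8. Pik3r4, its regulatory subunit, was at -0.10 over hours 1 to 8 (adjusted p = 0.0666) and at -0.22 over hours 5 to 8 (adjusted p = 0.0029); with the letter as a block the former passed too (adjusted p = 0.0326). Rubcn, which binds the complex and restrains it, was at -0.12 (adjusted p = 0.411), and its letters at 0.18, -0.27 and -0.19. Becn1 was at -0.02 (adjusted p = 0.715) and Uvrag at 0.00 (adjusted p = 0.989) over hours 1 to 8.

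Of 33 other phosphoinositide phosphatases and kinases, 2 were higher and 4 lower over hours 1 to 8, with a median of -0.03; the count higher is close to the share over all tested probe sets. The lower ones with the largest differences were Inpp5k, a phosphatase known to restrain insulin signalling in muscle, at -0.33 (adjusted p = 0.0370), Pip5k1c, which makes the substrate of PI3-kinase, at -0.31 (adjusted p = 0.00504), and Mtmr14, a muscle phosphatase of the lipid that Pik3c3 makes, at -0.24 (adjusted p = 3.48e-05). The higher ones were Mtmr4 at 0.14 (adjusted p = 0.0383) and Inpp5b at 0.12 (adjusted p = 0.0214). Without letter b at hours 0 to 5 Mtmr14 passed (adjusted p = 0.00342), and Inpp5k (0.188), Pip5k1c (0.257), Mtmr4 (0.118) and Inpp5b (0.139) did not. Pip5k1c differed by 0.02 in letter a against -0.53 and -0.37 in letters b and c.

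Of 27 regulators of Akt, 2 were higher and 4 lower, with a median of -0.02, and the count higher is again close to that share. Trib3, a pseudokinase described as binding Akt, was higher by 0.63 (SE 0.09, adjusted p = 6.48e-06) and gained 1.07 from the early to the late hours (adjusted p = 0.00737). Ppp2ca, a catalytic subunit of the phosphatase PP2A, was higher by 0.22 (adjusted p = 0.0249). The lower ones with the largest differences were the adaptor Appl2 at -0.28 (adjusted p = 2.55e-06), the Akt phosphatase Phlpp1 at -0.21 (adjusted p = 0.00833) and Rictor, a core subunit of the mTORC2 kinase that phosphorylates Akt, at -0.20 (adjusted p = 0.000257). Without letter b at hours 0 to 5 Trib3 (adjusted p = 0.0024), Appl2 (0.000117) and Rictor (0.00118) passed, and Phlpp1 (0.247) and Ppp2ca (0.285) did not. In letter a Phlpp1 was at -0.03 and Ppp2ca at 0.02, against -0.35 and 0.32 in letter b and -0.23 and 0.27 in letter c.

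Of 23 substrates of Akt, 1 was higher and 3 were lower, with a median of 0.00; 1 of 23 is close to the share of all tested probe sets called higher. The higher one was Chuk, which encodes the IKK alpha kinase, at 0.22 (adjusted p = 0.000237). The lower ones were the cell cycle inhibitor Cdkn1b at -0.42 (adjusted p = 7.32e-05) and the transcription factors Foxo3 at -0.42 (adjusted p = 0.0016) and Foxo4 at -0.33 (adjusted p = 0.0062). Without letter b at hours 0 to 5 Cdkn1b (adjusted p = 0.0033) and Foxo3 (0.0375) passed, and Chuk (0.0761) and Foxo4 (0.124) did not. Of the 18 genes of the 4 lists that passed, 8 also passed without these arrays, where 1.73% and 2.82% of all tested probe sets were called higher and lower, and 2 with 1 mean per letter, where 0.23% and 0.465% were.

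**Figure D5:**
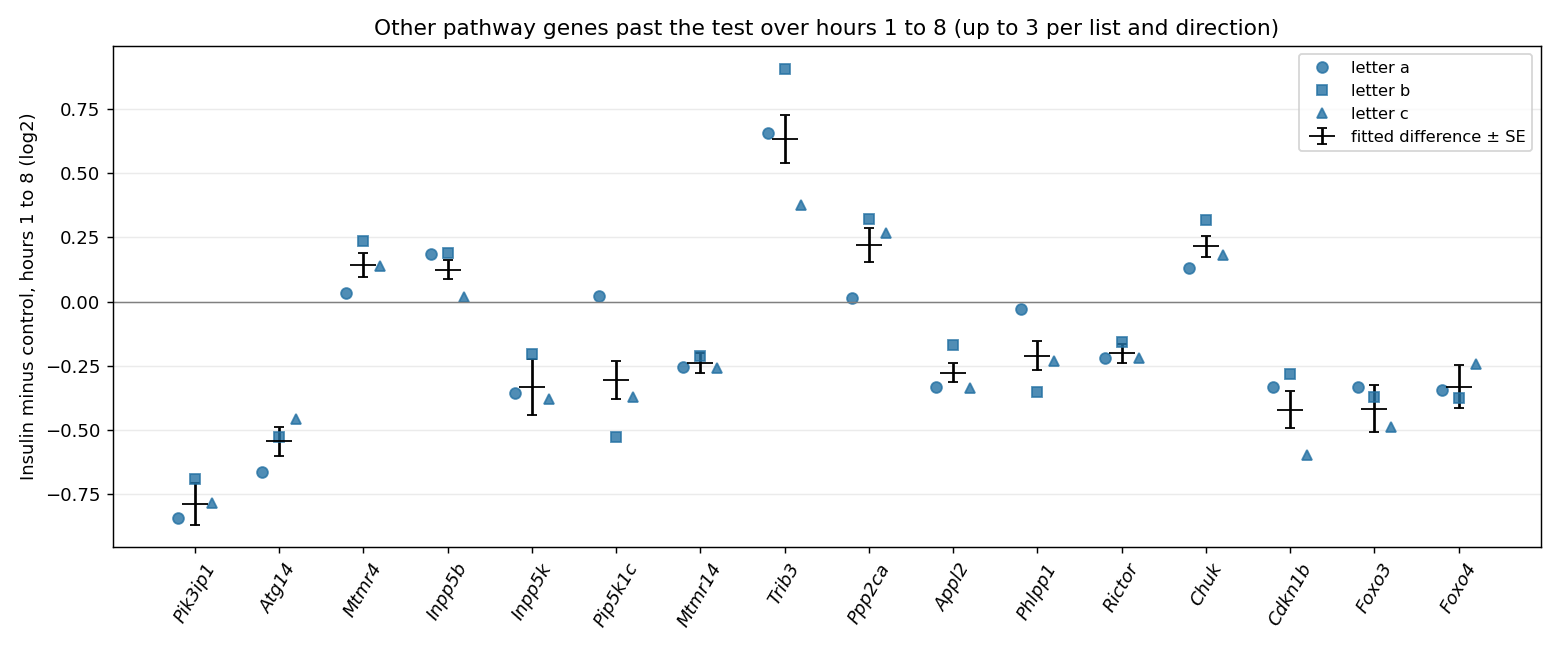
Insulin minus control difference over hours 1 to 8 on the log2 scale (vertical axis) for the pathway genes other than the members that passed the test, up to 3 in each direction of each list. Blue marks are the means of letters a, b and c and black bars the fitted difference with its standard error. Pik3ip1 and Atg14 lie lowest, at -0.79 and -0.55, and Trib3 highest, at 0.63.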

How the data were processed

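RNA of rat L6 myotubes was measured on Affymetrix rat expression arrays. Per the labels and the study's methods, the authors made the deposited log2 values with RMA (background subtraction and quantile normalization over all arrays); 1 insulin array of hour 3 was left out, per the submitters' design text. The values were used as deposited for 53 arrays (array medians 6.30 to 6.37). Probe sets were named by the platform annotation: 20832 carry 1 symbol, 436 several and 9831 none. Probe sets with a mean of at least 5 were tested (22143 of 31099, the manufacturer's 57 controls left out). limma 3.58.1 in R 4.3.3 fitted 1 mean per group, with a trend in the variance and Benjamini-Hochberg adjustment at 0.05, two-sided; the scripts were tested on simulated data. The median standard error of a difference was 0.05 over hours 1 to 8 and 0.14 at a single hour. It takes arrays of the same letter as independent and can understate the spread between the 3 letters. With no block it also holds the differences in level between letters, which can widen it for genes whose letters lie far apart. Repeats of 1 letter were made on the same day, and arrays of the same letter deviated together from their group means (r from 0.21 to 0.79 over 26 pairs of arrays), so the letter pairs the samples. Named are the 9 members, up to 3 called genes per direction of each pathway list by size of the difference, and the 3 genes most like each member. The members, lists and tests were chosen with earlier results of these data known, and Pik3ca, Pik3cb, Pik3c3, Inpp4a and Inppl1 are in a gene list that the study selected on these samples, so their differences are not independent evidence. Alternatives were other filters, blocks, scalings, weights and left-out arrays.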

Additional observations from a re-analysis of the deposited data

How the results depend on the processing

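The counts of members depended on a few choices. Over hours 1 to 8 the count higher was 1 and became 0 without letter b at hours 0 to 5, without hour 3 (tried after seeing the data), with 1 mean per letter and relative to time 0, and 2 with array weights; leaving out 1 letter gave 0 to 1. The count lower was 2 and became 4 with either replicate block, 1 without letter b at hours 0 to 5, and 0 with 1 mean per letter and relative to time 0; leaving out 1 letter gave 1 to 4. Over hours 5 to 8 the count lower was 2, and 1 with no filter, without letter b at hours 0 to 5 and with 1 mean per letter, and 0 relative to time 0; leaving out 1 letter gave 1 to 2. From the early to the late hours none was called, but 1 was called lower, Pik3c3, with a stricter filter on dim probe sets, with either replicate block, array centring, cyclic loess, array weights or no variance trend, and 1 higher, Akt1, with either block or array weights. The count at any hour was 1, and 4 with either replicate block and 3 with array weights; leaving out 1 letter gave 0 to 1. The gap of Akt1 over Akt2 was 0.0749 to 0.159 and that of Inpp4a over Inppl1 -0.251 to -0.0833 when 1 letter was left out. No value past the threshold in the main fit changed sign under any alternative run, and none that passed in an alternative had the sign opposite to the main fit. Akt1 over hours 1 to 8 passed without letter a at -0.19 and reached 0.08 in another alternative, where it did not pass. The fit of 1 mean per letter and the values relative to time 0 give no test at any hour, and the pair Pik3ca and Pik3cb could not be run. Why the calls moved was not tested. The standard errors given, a median of 0.05 over hours 1 to 8, take the arrays of 1 letter as independent. They can therefore understate the uncertainty, which rests on 3 letters. With no block they also hold the spread between letters, which can widen them where letters lie far apart. For Inpp4a over hours 1 to 8 the limma adjusted p was 0.383 with no block and 2.54e-05 with the letter as a block.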
